A study of Homo sapiens with 12 samples.

Results

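The miRNAs described here were chosen around precursors known to mature without the usual first cut by Drosha: hsa-miR-320a, hsa-miR-484, hsa-miR-877-5p and hsa-miR-1226-3p. The group also holds hsa-miR-320b, hsa-miR-320c and hsa-miR-320d, which were placed with miR-320a by name. Members were taken by name from the table of small RNA counts, which made 7 of the 2588 mature miRNAs listed there. Where a miRNA had several entries, one for each precursor, the entry with the highest total count was used. Reads were deposited for A549 cells, a line derived from a human lung adenocarcinoma with features of alveolar epithelium, in which EMT was induced with TGF-β for 0, 24 or 96 h. Each time point had 2 libraries of total RNA, each built from 2 sequencing runs, and no untreated culture was kept to 24 or 96 h, so that time in culture and TGF-β cannot be told apart. The 2 libraries of a time point are called replicates in the labels' numbering, and nothing states that they came from separate cultures. The p-values therefore measure only the spread between these libraries, which may be technical.

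Most miRNAs are cut out of a long primary transcript by the Microprocessor, in which Drosha is the nuclease, and are then exported and cut again by Dicer. A few hairpins skip the first step. The miR-320a and miR-484 precursors are short transcripts of RNA polymerase II whose 5′ end is the start of transcription itself and carries a cap. Mirtrons are short introns whose ends, once the intron is spliced out and its lariat opened, are the ends of the hairpin, so that the spliceosome takes the place of Drosha. miR-877 and miR-1226 are mirtrons. All of these hairpins are still cut by Dicer. Counts of mature miRNAs do not show by which route they were made, and miR-320b, miR-320c and miR-320d are grouped with miR-320a by name.

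The mature sequences of 6 of the 7 members were found in the RefSeq table (build GRCh38.p14). They are shown to mark what the members share and where the miR-320 copies part. Capitals mark the seed, bases 2 to 8 from the 5′ end, which does most of the pairing with target mRNAs.
miR-320b: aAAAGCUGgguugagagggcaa
miR-320c: aAAAGCUGgguugagagggu
miR-320d: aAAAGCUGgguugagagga
miR-484: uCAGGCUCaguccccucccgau
miR-877-5p: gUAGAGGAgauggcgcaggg
miR-1226-3p: uCACCAGCccuguguucccuag

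miR-320b, miR-320c and miR-320d carried the same seed and differed only near the 3′ end. Counted from 1 at the 5′ end of miR-320b, its difference from miR-320c was C20U and its difference from miR-320d was G19A, so that the first 19 and 18 bases were shared. Reads that stop within the shared bases cannot be assigned to one of these copies, and the split among them is uncertain for that reason. miR-320a had no sequence to compare, so whether its reads can be told from those of the copies was not checked. The seed of the miR-320 members also occurred in miR-4429, which had 3 counts over all 6 libraries. The seed of miR-484 occurred in miR-3155a, with 1 count, and in miR-3155b, which was listed at 0. No other mature miRNA of the table with a RefSeq sequence shared the seeds of miR-877-5p or miR-1226-3p. The 3 members outside the miR-320 group were rich in G and C, at 63.6% for miR-484, 65% for miR-877-5p and 59.1% for miR-1226-3p. The median was 47.6% over the 434 tested miRNAs that had a sequence, and miR-320b and miR-320c held 50% and miR-320d 47.4%.

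The genes of the members lay in unlike places, given here on hg19, the build named in the submitters' processing notes. The miR-320a gene lies on chromosome 8, 89 bases from POLR3D, which encodes a subunit of RNA polymerase III, and on the opposite strand. miR-320b has 2 genes, one outside annotated genes at chr1:117214409-117214430 on the plus strand and one at chr1:224444751-224444772 on the minus strand, within an intron of NVL and on its strand. Both miR-320c genes lie on the plus strand within introns of genes read from the other strand, ABHD3 at chr18:19263520-19263539 and OSBPL1A at chr18:21901680-21901699. The miR-320d genes lie outside annotated genes at chr13:41301964-41301982 and chrX:140008337-140008355, both on the minus strand. In each hairpin of miR-320b, miR-320c and miR-320d the mature miRNA lay on the 3p arm.

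miR-484 lies at chr16:15737158-15737179 on the plus strand, on the 5p arm of its hairpin, in the untranslated first exon of NDE1. The annotated precursor begins 27 bases after the start of that NDE1 transcript. miR-877-5p lies at chr6:30552109-30552128 on the plus strand within ABCF1, which encodes a protein linked to translation, and miR-1226-3p at chr3:47891098-47891119 on the plus strand within DHX30, which encodes an RNA helicase. For both mirtrons the hairpin and the intron were the same stretch of genome. The 86 bases of the miR-877 precursor had the ends of the intron in 4 of the 4 ABCF1 transcripts that hold it, and the 75 bases of the miR-1226 precursor had them in 6 of 6 DHX30 transcripts. Both hairpins began with GU and ended with AG, the bases at the ends of a spliced intron, as did 36 of the 1562 RefSeq hairpins, or 2.30%. The mature strands sat at opposite ends of their introns. miR-877-5p took up the first 20 bases of its intron and miR-1226-3p the last bases of its own, positions 54 to 75.

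The libraries held between 2335185 and 5971197 counts of mature miRNAs, and the 96 h libraries were the deepest. miR-21-5p alone took 52.4% to 65.5% of them, and its share was higher in both 96 h libraries than in the others. Levels are given as counts per 1000000 after TMM scaling (CPM), which sets the bulk of miRNAs equal between libraries. Of the miRNAs with a count, 491 passed the filter on low counts and were tested with edgeR's quasi-likelihood test, and a change was called at an adjusted p under 0.05 with an absolute log2-fold change above 1. Among the miRNAs that mark cell types, the 6 epithelial markers were the miR-200 family and miR-205-5p. They summed to 119 to 120 CPM at 0 h, 153 to 181 CPM at 24 h and 235 to 243 CPM at 96 h. Of the 5 tested, 1 was called higher at 96 h (miR-200b-3p), where 12.6% of all tested miRNAs were. The others were not called, with log2-fold changes of 0.81 (miR-200a-3p), 0.20 (miR-429), −0.03 (miR-200c-3p) and −1.14 (miR-141-3p). miR-205-5p had 6 counts in all and was not tested. The lists of fibroblast, blood and muscle markers summed to at most 4.28, 4.76 and 1.83 CPM in any library. On these lists miR-214-3p and miR-223-3p were at 0 in all 6 libraries, while miR-199a-3p had 38 counts and miR-142-3p had 28, with some in each library. The 4 blood markers summed to 3.88 to 4.76 CPM at 0 h, 0.918 to 1.86 CPM at 24 h and 0.814 to 0.908 CPM at 96 h. Of the members, 6 of 7 passed the filter and miR-1226-3p did not.

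miR-320a was by far the most abundant member and changed little under TMM scaling, although its share of all counts was lower at 96 h. The 0 h libraries held 2245 and 2918 counts, the 24 h libraries 1908 and 2276, and the 96 h libraries 4079 and 3004. After scaling, the 0 h libraries stood at 822 and 871 CPM, the 24 h libraries at 710 and 696 CPM and the 96 h libraries at 926 and 815 CPM. Both 24 h libraries were below all others, and the 0 and 96 h libraries overlapped. It ranked 59th to 67th among all mature miRNAs. The mean was 847 ± 34.2 CPM at 0 h, 703 ± 9.79 CPM at 24 h and 870 ± 78.3 CPM at 96 h (SD, n = 2 each). The log2-fold change was −0.27 at 24 h (95% confidence interval −0.57 to 0.04) and 0.04 at 96 h (−0.26 to 0.34). Neither was called, with Benjamini-Hochberg adjusted p = 0.222 and 0.836 from edgeR's quasi-likelihood test. These intervals leave no room for a doubling or a halving under this scaling. From 24 to 96 h it was 0.31 (0.00 to 0.61), with an unadjusted p of 0.0471 and an adjusted p of 0.157 from edgeR's quasi-likelihood test. Both libraries of one time point lay above both of the other for 57.8% of all tested miRNAs at 24 against 0 h and for 61.9% at 96 against 24 h, so that such a separation was common.

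**Figure D1:**
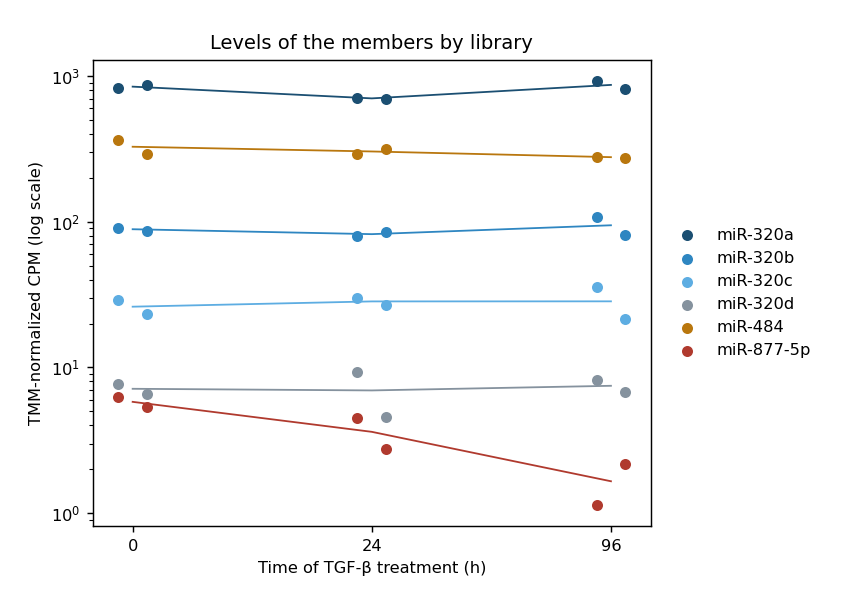
Levels of the 6 tested members in each library in TMM-normalized CPM on a log axis, against hours of TGF-β; points are libraries and lines join the means of the 2 libraries at each time point. miR-320a, miR-484 and the other miR-320 members run nearly level, while miR-877-5p goes from 6.23 and 5.37 at 0 h to 1.13 and 2.17 at 96 h.

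The other miR-320 members followed in a steep order of level. miR-320b went from 248 and 291 counts (0 h) through 214 and 277 (24 h) to 475 and 300 (96 h). In CPM this was 90.8 and 86.8, then 79.6 and 84.7, then 108 and 81.4. The 96 h libraries lay on either side of the 0 h libraries. The log2-fold change was −0.11 at 24 h (−0.53 to 0.31) and 0.09 at 96 h (−0.32 to 0.50), with edgeR quasi-likelihood adjusted p = 0.707 and 0.712.

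miR-320c stood at 28.9 and 23.3 CPM before TGF-β, then at 30.1 and 26.6 CPM after 24 h, then at 35.4 and 21.4 CPM after 96 h, on 78 to 156 counts a library. Its highest and lowest values were both at 96 h. The log2-fold change was 0.12 at 24 h (−0.50 to 0.74) and 0.13 at 96 h (−0.47 to 0.74). miR-320d, the shortest copy, had only 15 to 36 counts a library. It measured 7.69 and 6.56 CPM before TGF-β, then 9.30 and 4.59 CPM after 24 h, then 8.17 and 6.78 CPM after 96 h. Here the 24 h libraries held both extremes. Its intervals at 24 h (−1.01 to 0.90) and 96 h (−0.83 to 0.99) were too wide to tell no change from a change near the threshold of 1.

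The levels kept one order in every library, with miR-320a above miR-484, then miR-320b, miR-320c, miR-320d and miR-877-5p. Within each time point the libraries of neighbours in this order did not overlap, although at 24 h the lower miR-320d value (4.59 CPM) and the higher miR-877-5p value (4.47 CPM) were close. These levels are reads per mature miRNA of 19 to 22 bases for the members with a sequence, not corrected for length.

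Reads of the miR-320 group were split among its copies in nearly the same way at each time point. With miR-320e, a further copy that begins 1 base later and carries the shifted seed AAGCUGG, the group held 2234 to 4752 counts a library. miR-320a went from 86.4% and 88.0% of them (0 h) through 85.4% and 85.6% (24 h) to 85.8% and 88.1% (96 h). miR-320b made up 8.78% to 10.4%, miR-320c 2.32% to 3.63%, miR-320d 0.564% to 1.12% and miR-320e 0.0880% to 0.269%. Shares within a library do not depend on how the libraries are scaled. For miR-320a to miR-320d the 0 and 96 h shares overlapped, and for miR-320e they did not, on 3 to 7 counts a library. An exact two-sided permutation test of 2 against 2 libraries cannot go below 0.33, and after adjustment over the 9 shares and ratios tested in this way p was 1 for all. Summed over the 5 copies, the group's log2-fold change was −0.24 at 24 h (−0.55 to 0.07) and 0.05 at 96 h (−0.26 to 0.35).

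The table held 2 entries each for miR-320b, miR-320c and miR-320d, as each has 2 genes. The second miR-320b entry held 79.3% to 87.3% of the count of the first, the second miR-320c entry 91.0% to 97.4%, and both miR-320d entries were identical in all 6 libraries. Entries this alike may count the same reads more than once. With all entries summed, the share of miR-320a in the group became 78.6%, 76.0% and 78.4% at 0, 24 and 96 h.

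miR-484, the second most abundant member, also changed little under TMM scaling, with a log2-fold change of −0.95 at 96 h under total counts. No library held fewer than 790 counts of it. The 0 h libraries measured 362 and 293 CPM, the 24 h libraries 294 and 314 CPM and the 96 h libraries 280 and 275 CPM. The 96 h libraries were the 2 lowest, though the lower 0 h library was only slightly above them. Its ranks ran from 92 to 100. The log2-fold change was −0.11 at 24 h (−0.45 to 0.23) and −0.24 at 96 h (−0.58 to 0.10), with adjusted p = 0.659 and 0.232 from edgeR's quasi-likelihood test. From 24 to 96 h it was −0.13 (−0.47 to 0.21). The count of miR-320a per count of miR-484 went from 2.27 and 2.97 (0 h) through 2.42 and 2.22 (24 h) to 3.30 and 2.97 (96 h), and the 0 and 96 h libraries overlapped.

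**Figure D2:**
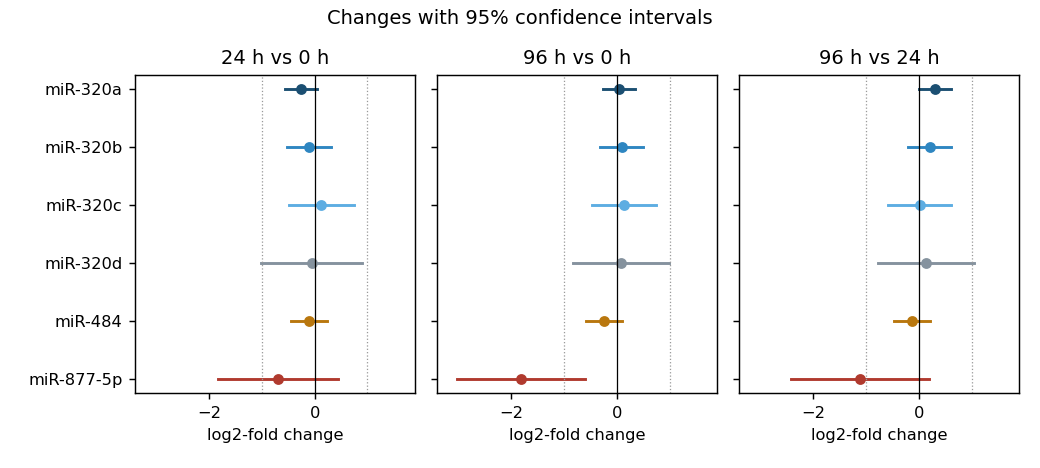
log2-fold changes of the 6 tested members in the 3 comparisons, with 95% confidence intervals from edgeR's quasi-likelihood fit; dotted lines mark −1 and 1. The interval of miR-877-5p at 96 h against 0 h (−3.03 to −0.60) excludes 0, and so, barely, does that of miR-320a at 96 h against 24 h.

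miR-877-5p, the mirtron member that passed the filter, was lower at 96 h. The 0 h libraries held 17 and 18 counts, the 24 h libraries 12 and 9 and the 96 h libraries 5 and 8, although the last were the deepest. In CPM it went from 6.23 and 5.37 (0 h) through 4.47 and 2.75 (24 h) to 1.13 and 2.17 (96 h). No library of one time point overlapped with those of another, as held between 0 and 96 h for 71.7% of all tested miRNAs. The mean was 5.80 ± 0.606 CPM at 0 h, 3.61 ± 1.21 CPM at 24 h and 1.65 ± 0.732 CPM at 96 h (SD, n = 2 each). At 96 h it fell by 1.81 on the log2 scale (−3.03 to −0.60, SE 0.54), with adjusted p = 0.0222 from edgeR's quasi-likelihood test. As a fold, the level at 96 h was 0.285 of that at 0 h (0.123 to 0.660). miR-877-5p passed the filter on low counts through its 0 h libraries, where it was highest, and not through its 96 h libraries. A fall from 0 h was thus favoured by that selection. At 24 h the log2-fold change was −0.69 (−1.83 to 0.44, adjusted p = 0.406), and from 24 to 96 h it was −1.12 (−2.42 to 0.19, adjusted p = 0.236), both from edgeR's quasi-likelihood test and neither called. The summed blood markers, which were at a similarly low level, were also lower at 24 and 96 h than at 0 h. Within that list miR-142-3p stood at 3.24 ± 1.63 CPM at 0 h and 0.363 ± 0.129 CPM at 96 h (SD, n = 2 each). For miR-451a the 0 and 96 h libraries overlapped (means 0.631 CPM at 0 h, 0.339 CPM at 24 h and 0.498 CPM at 96 h). miR-144-3p had counts in 1 library only, and miR-223-3p was at 0. The part of the blood markers in the result was not tested. In bulk RNA, fewer cells that make a miRNA and less of it per cell cannot be told apart.

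The call rests on few reads. It was kept with DESeq2 size factors, with total counts, with the deeper libraries thinned to the smallest total and in 2 of the 6 fits without 1 library. It was lost with DESeq2's Wald test (log2-fold change −1.75, Benjamini-Hochberg adjusted p = 0.0691). It was also lost in edgeR's quasi-likelihood test without 0 h replicate 1 (−1.67, adjusted p = 0.0716), 0 h replicate 2 (−1.91, adjusted p = 0.0507), 96 h replicate 1 (−1.37, adjusted p = 0.163) or 96 h replicate 2 (−2.27, adjusted p = 0.0530). By the dates in the labels, the first runs of all libraries shared a day, the second runs of 0 h replicate 1 and both 96 h libraries shared a later one, and those of 0 h replicate 2 and both 24 h libraries shared another. The run dates thus differed between the 0 h libraries, and only 0 h replicate 1 shared both dates with the 96 h libraries. The part of the run date in the result was not tested. Beside the 1 called member of 6 tested stand 127 of 491 miRNAs called at 96 h against 0 h, or 25.9% of all tested, and 13.2% called lower.

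No member was called at 24 h against 0 h, where 3.46% of all tested miRNAs were called, nor at 96 h against 24 h, where 5.91% were. In edgeR's quasi-likelihood test 0 of the 6 tested members had an unadjusted p under 0.05 in the first of these and 1 in the second, and DESeq2 gave the same counts and also called 0. The comparisons with 0 h share the 0 h libraries. The median log2-fold change of the 6 tested members was −0.11 at 24 h and 0.06 at 96 h, beside −0.10 over all tested miRNAs at 96 h and a value near 0 at 24 h.

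**Figure D3:**
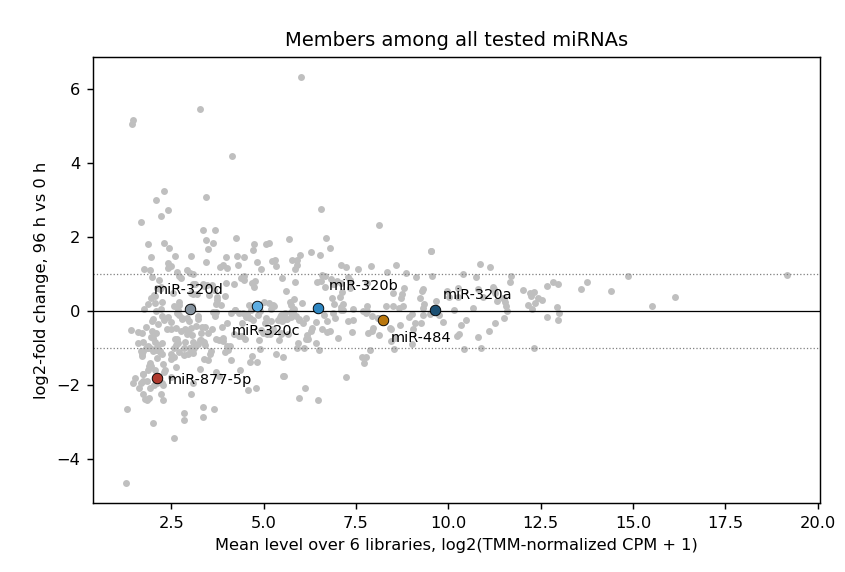
log2-fold change at 96 h against 0 h for the 491 tested miRNAs (grey) and the 6 tested members (named), against the mean level over 6 libraries; dotted lines mark −1 and 1. miR-320a, miR-320b, miR-320c, miR-320d and miR-484 lie between −0.24 and 0.13, while miR-877-5p lies at −1.81 among the miRNAs of low level.

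Against miR-484 and miR-320a in the same library, miR-877-5p was lower at 96 h, a measure that no scaling can move. These ratios use the same counts of miR-877-5p as the call and are no separate evidence for it. Per 1000 counts of miR-484, miR-877-5p went from 17.2 and 18.3 counts (0 h) through 15.2 and 8.78 (24 h) to 4.05 and 7.90 (96 h). Per 1000 counts of miR-320a it went from 7.57 and 6.17 (0 h) through 6.29 and 3.95 (24 h) to 1.23 and 2.66 (96 h). In both ratios the 96 h libraries were below every other library. The exact two-sided permutation p of each was 0.33, the smallest that 2 against 2 libraries allow.

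Both strands of the miR-877 intron were read, and most reads came from its 5′ end. The other strand, printed for comparison, has 21 bases.
miR-877-3p: uCCUCUUCucccuccucccag
It had 2 and 5 counts before TGF-β, then 0 and 1 after 24 h, then 0 and 2 after 96 h. Over all libraries 69 of 79 miR-877 counts, or 87.3%, were on the 5p strand (exact 95% interval 77.95% to 93.8%, counting error only). In single libraries the 5p share ran from 78.3% to 100%, and the 0 and 96 h libraries overlapped.

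**Figure D4:**
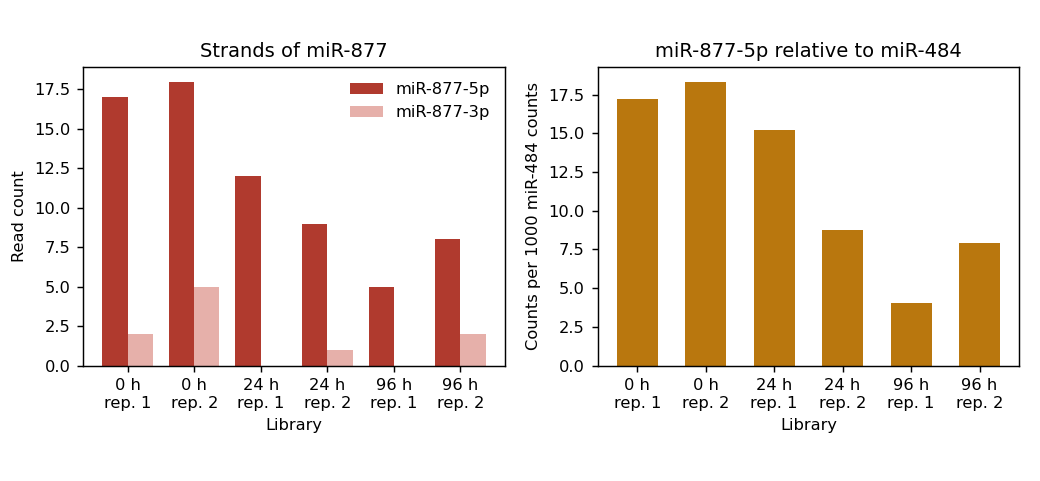
Left, read counts of both strands of miR-877 in each library; right, counts of miR-877-5p per 1000 counts of miR-484, a ratio within a library. The 0 h libraries hold 17 and 18 counts of miR-877-5p and the 96 h libraries 5 and 8, and the ratio goes from 17.2 and 18.3 to 4.05 and 7.90.

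miR-1226-3p was barely detected. Both 0 h libraries held 0 counts, both 24 h libraries 1 count and the 96 h libraries 1 and 0, and its other strand, miR-1226-5p, had 2 counts in all. A library without a count may still have held as many as 3, or 1.10 and 0.895 CPM in the 0 h libraries and 0.814 CPM in 96 h replicate 2. A change of miR-1226-3p was therefore not detectable at this depth, and it was not tested. The other mirtrons were also low. Of 20 mature strands of miR-1224, miR-1225, miR-1227 to miR-1229, miR-1233, miR-1234 and miR-1236 to miR-1238, the table listed 19. Of these, 11 were at 0 in all libraries and none passed the filter. Together they summed to 1.84 to 5.37 CPM a library. The highest was miR-1224-5p, with 5 and 11 counts before TGF-β, then 8 and 2 after 24 h, then 9 and 9 after 96 h.

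Among miRNAs lying within small nucleolar RNAs, some of which are also known to mature without Drosha, miR-664a-3p was higher at 96 h. Of 6 mature strands listed, 2 were tested and 1 was called higher at 96 h, where 12.6% of all tested miRNAs were called higher. miR-664a-3p went from 16 and 12 counts (0 h) through 34 and 32 (24 h) to 71 and 71 (96 h). In CPM it rose from 5.86 and 3.58 through 12.7 and 9.79 to 16.1 and 19.3, with no overlap between time points. Such a separation held for 57.8% of all tested miRNAs at 24 against 0 h. It held for 71.7% at 96 against 0 h and for 61.9% at 96 against 24 h. The log2-fold change was 1.92 at 96 h (1.13 to 2.70), with adjusted p = 0.00202 from edgeR's quasi-likelihood test, and the call held in all 6 fits without 1 library (1.59 to 2.33). At 24 h it was 1.26 (0.42 to 2.09), with adjusted p = 0.0677 from edgeR's quasi-likelihood test. The other tested strand, miR-1291, had 1 and 13 counts before TGF-β and 12 and 27 after 96 h. Its log2-fold change of 1.12 at 96 h (−0.67 to 2.90) was not called. Without 1 library it ran from 0.31 (without 96 h replicate 2) to 3.63 (without 0 h replicate 2, which leaves 1 count at 0 h).

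The sign of the small changes depended on the scaling. As a share of all counts, miR-320a went from 0.0961% and 0.119% (0 h) through 0.0749% and 0.0708% (24 h) to 0.0683% and 0.0645% (96 h). These shares fell while the scaled level did not. With libraries scaled to total counts, the log2-fold change at 96 h was −0.69 for miR-320a, −0.64 for miR-320b, −0.60 for miR-320c, −0.65 for miR-320d and −0.95 for miR-484. The median of all tested miRNAs was then −0.83, so that miR-320a lay 0.13 above it and miR-484 0.13 below. Under TMM the median was −0.10 and miR-320a lay 0.14 above it. The edgeR quasi-likelihood adjusted p under total counts was 0.00493 for miR-320a and 0.000993 for miR-484, yet neither passed a log2-fold change of 1, and miR-877-5p (−2.53) was again the only member called.

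**Figure D5:**
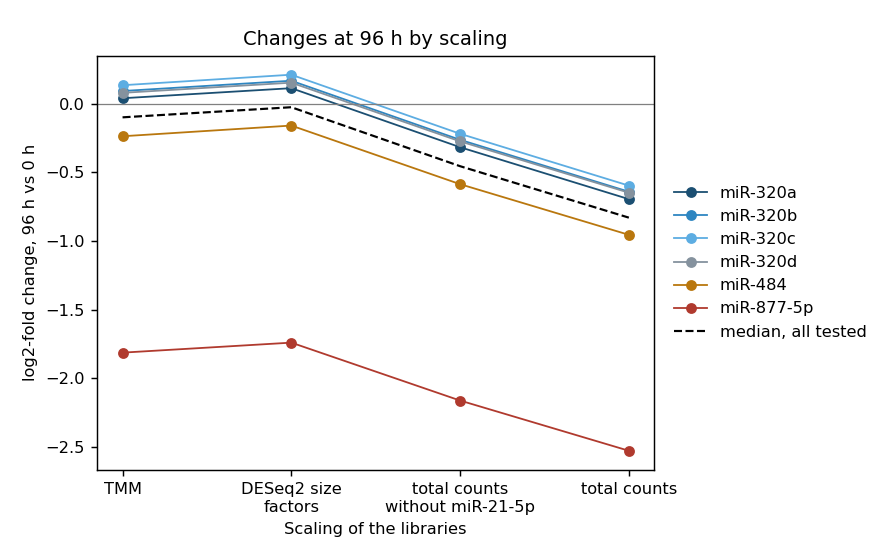
log2-fold change at 96 h against 0 h of the 6 tested members under 4 ways of scaling the libraries, with the median of all tested miRNAs as a dashed line. The members move with the median: miR-320a goes from 0.04 under TMM to −0.69 under total counts, where the median is −0.83, and miR-877-5p from −1.81 to −2.53.

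Across the 6 libraries, the tested miRNA whose level ran most like that of miR-320a was miR-1275, with Pearson's r = 0.93 on log2 CPM among 318 candidates, followed by miR-585-3p (0.82) and miR-146b-5p (0.77). miR-1275 stood at 21.4 ± 2.86 CPM at 0 h, 11.9 ± 0.0149 CPM at 24 h and 21.9 ± 3.71 CPM at 96 h (SD, n = 2 each). It shared the low point at 24 h. For miR-484 the closest were miR-130b-5p (0.98), miR-548f-3p (0.92) and miR-941 (0.90). Between members, r was 0.73 for miR-320a with miR-320b, 0.13 for miR-320a with miR-320c and −0.22 for miR-320a with miR-484. These are descriptions over 6 libraries of 3 time points that share their depth and scaling, and the highest of many candidates is high by selection.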

How the data were processed

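The authors made small RNA libraries with an Illumina kit, sequenced them on an Illumina HiSeq instrument and quantified miRNAs with miRDeep2. The deposited counts are unscaled read numbers for each pair of mature miRNA and precursor, and the 2 runs of each library are combined in 1 column. The processing notes name FastQC and hg19. Mapping settings and the miRNA reference set are not given in the sources used here. A second deposited table, the counts scaled to a common total, was not used because its last column repeated another library.

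From the counts, 1 entry was kept for each mature miRNA. Libraries were scaled by TMM in edgeR 4.0.16 (R 4.3.3), filtered with filterByExpr (minimum count 10) and fitted with one term per time point over all 6 libraries by the quasi-likelihood test, with Benjamini-Hochberg adjustment over the 491 tested miRNAs. The thresholds, an adjusted p of 0.05 and an absolute log2-fold change of 1, are those of the study's methods. Confidence intervals are at 95%. The fit was tested on simulated data. Depth ran from 2335185 to 5971197 counts, so that 3 counts, the most a count of 0 allows, were 0.681 to 1.12 CPM. Intervals of shares and these floors cover counting error only. Replicates differed beyond counting noise at each time point (chi-square per degree of freedom 38.9 to 77.9).

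Alternatives were DESeq2 1.42.0 (Wald test, and size factors within edgeR), total counts with and without miR-21-5p, other filters, only the libraries compared, a replicate block, summed precursor entries, each library left out and, added after seeing the data, thinning to the smallest total. Named miRNAs were all 7 members, tested entries of the related lists (other mirtrons, other strands, miR-320e, miRNAs within small nucleolar RNAs), miRNAs sharing a seed, the 3 miRNAs most like miR-320a and miR-484 (mean of 10 CPM or more), and miR-21-5p. miR-1224-5p, miR-4510, miR-6891-3p and the single cell type markers, such as miR-200b-3p and miR-142-3p, were named after their values were seen. Members and lists were chosen with earlier results of these data known. Sequences came from RefSeq (2281 of 2588 names matched), and positions from matching them to GRCh37 with GENCODE release 44 lifted to it.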

Additional observations from a re-analysis of the deposited data

How the results depend on the processing

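Of the members' calls, that of miR-877-5p at 96 h against 0 h alone depended on the processing. It was lost with DESeq2's Wald test (log2-fold change −1.75), which left 0 members called, and with a mean of at least 10 CPM, where it was not tested and 0 were called. Without 1 library the change ran from −2.27 to −1.37 and the members called from 0 to 1. The cause was not tested. No other member was called under any setting.

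The sign of small changes was less stable. At 96 h against 0 h, total counts gave −0.69 for miR-320a, −0.64 for miR-320b, −0.60 for miR-320c and −0.65 for miR-320d. Total counts without miR-21-5p gave −0.32, −0.26, −0.22 and −0.27. The stricter filter gave −0.11, −0.052 and −0.0091 for miR-320a to miR-320c, and thinning gave −0.015, −0.048 and −0.15. Without 1 library the ranges were −0.028 to 0.17 for miR-320a, −0.10 to 0.32 for miR-320b, −0.25 to 0.49 for miR-320c and −0.038 to 0.24 for miR-320d. At 24 h against 0 h, miR-320c was −0.16 with total counts and −0.056 with total counts without miR-21-5p. Without 1 library, miR-320c ran from −0.020 to 0.32, miR-320d from −0.59 to 0.34 and miR-484 from −0.24 to 0.092. At 96 h against 24 h, total counts gave −0.13 for miR-320a, −0.24 for miR-320b, −0.44 for miR-320c and −0.31 for miR-320d. Total counts without miR-21-5p gave −0.16 for miR-320c and −0.037 for miR-320d. For miR-320c, the stricter filter gave −0.049, the 2 time points alone −0.00013 and thinning −0.28. Without 1 library, miR-320c ran from −0.34 to 0.40, miR-320d from −0.23 to 0.71 and miR-1291 from −0.0052 to 1.41. At 24 h against 0 h miR-1291 ran from −0.38 to 2.87, and at 96 h against 0 h from 0.31 to 3.63, where it was called without 0 h replicate 2 (adjusted p = 0.0332 in edgeR's quasi-likelihood test).

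Entries of the related lists called at 24 h against 0 h were 1 in place of 0 with no filter (miR-664a-3p), and 0 to 1 without 1 library. At 96 h against 0 h they were 1 to 2 without 1 library. Over all miRNAs, total counts called 33, 215 and 72 in the 3 comparisons, in place of 17, 127 and 29, and without a 24 h library the count at 24 h against 0 h was 4 or 5.

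Correlations of same-numbered deviations between time points were −0.31, 0.33 and −0.20. They differed in sign and cannot show whether replicate numbers pair the libraries. With a replicate block, 20, 124 and 41 miRNAs were called, miR-877-5p at 96 h was −1.81 and miR-320c at 96 h against 24 h was −0.027. Low counts limit miR-320d, miR-877-5p and miR-1226-3p most.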

Other observations

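Hairpins with the ends of a spliced intron were looked up by sequence, a set chosen after the data had been seen. The 36 RefSeq hairpins that start with GU and end with AG gave 61 mature miRNAs in the count table. Of these, 38 had no count, 5 had at least 10 counts over the 6 libraries, and 1, miR-877-5p, passed the filter on low counts. The 61 together held 242 counts. After miR-877-5p with 69, the highest was miR-4510, which went from 14 and 8 counts (0 h) through 8 and 7 (24 h) to 6 and 4 (96 h). miR-1224-5p had 44 counts, miR-877-3p 10 and miR-6891-3p 18, and the last were all at 96 h, with 14 and 4 counts and 0 in the other 4 libraries. Apart from miR-877-5p none of these was tested. Such ends alone do not make a hairpin a mirtron, since the position of these hairpins in introns was checked only for miR-877 and miR-1226.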
